A study of Mus musculus with 12 samples.

Results

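The 10 genes described here encode the Cyp4 cytochrome P450 enzymes that carry out ω-oxidation of fatty acids in mouse liver: Cyp4a10, Cyp4a14, Cyp4a31, Cyp4a32, Cyp4a12a, Cyp4a12b, Cyp4f13, Cyp4f14, Cyp4f15 and Cyp4v3. They were chosen by gene symbol from a table of 48795 genes, and all 10 were among the 13812 genes with enough counts to be tested. RNA was sequenced from whole liver of 12 female mice, 4 months old and kept on normal chow, with 3 mice in each of 4 groups. The groups were Nts+/+ mice with free access to food (mice 254, 257 and 323), Nts+/+ mice fasted for 22 h (265, 282 and 322), Nts-/- mice with free access to food (277, 303 and 319) and Nts-/- mice fasted for 22 h (284, 290 and 295). The mice were littermates matched for age and sex, and Nts encodes neurotensin, a gut peptide released after fat is eaten. The comparisons ask how fasting changes the Cyp4 genes, whether loss of neurotensin changes them in either feeding state, and whether the fasting response differs between the genotypes.

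Cyp4 enzymes sit in the endoplasmic reticulum and add a hydroxyl group to the last carbon of a fatty acid, using electrons passed on from NADPH by the P450 reductase Por. Alcohol and aldehyde dehydrogenases then turn the ω-hydroxy acid into a dicarboxylic acid, which is shortened in peroxisomes. In liver this route takes up fatty acids when the supply exceeds what mitochondrial β-oxidation handles, and Cyp4a10 and Cyp4a14 are textbook targets of PPARα, the nuclear receptor that responds to fatty acids in fasting. Cyp4f enzymes also act on leukotrienes and other eicosanoids, and Cyp4v3 is the mouse counterpart of human CYP4V2, an ω-hydroxylase of fatty acids whose loss causes a crystalline retinal dystrophy.

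The depth was between 21999647 and 45273069 estimated counts per mouse, and a floor of 3 counts lay between 0.0663 and 0.136 CPM, which are counts scaled to the total of the library. Levels below are CPM scaled between libraries by the trimmed mean of M-values (TMM). Nts had 0 counts in all 6 mice labelled Nts+/+, and between 4 and 46 counts in the 6 mice labelled Nts-/-, the reverse of what the labels name. The cause was not tested, and the genotypes are given as labelled throughout. The hepatocyte markers Alb, Ttr, Apoa1, Cps1, Tat and Fgb summed to between 107303 and 139244 TMM-normalized CPM over the 12 mice. The kidney proximal tubule list, a tissue that also expresses Cyp4a genes, summed to at most 0.108 TMM-normalized CPM, with 2 of its 5 genes at 0 in every mouse, and the 5 adipocyte genes summed to at most 0.260.

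Fasting raised the 4 inducible Cyp4a genes and lowered Cyp4f14 under both genotype labels. In mice labelled Nts+/+, 4 of the 10 members rose and 1 fell at an adjusted p under 0.05, against 8.91% of all tested genes that rose and 9.19% that fell. In mice labelled Nts-/- the same 5 genes passed in the same directions, against backgrounds of 7.70% and 9.14%. Cyp4a10, Cyp4a31 and Cyp4a32 share reads, so their rises are not separate results. With near-identical genes summed, 2 of 7 units rose and 1 fell under each label. The median log2 fold change of the 10 members was 0.81 under the Nts+/+ label and 0.85 under the Nts-/- label, beside -0.0032 and -0.011 over all tested genes. These medians do not show a shift of the whole family. Under the Nts+/+ label the median falls in the gap between Cyp4f13 (-0.050) and Cyp4a32 (1.67). Under the Nts-/- label it falls between Cyp4a12b (0.82) and Cyp4a12a (0.88), which both had low counts. The 5 genes that passed were also those whose fasted mice did not overlap with the fed mice, a pattern found in 36.0% of all tested genes under the Nts+/+ label and in 35.2% under the Nts-/- label. Both fasting comparisons use their own mice and share none, and in RNA of whole liver fewer cells of a type and less RNA per cell cannot be told apart.

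**Figure D1:**
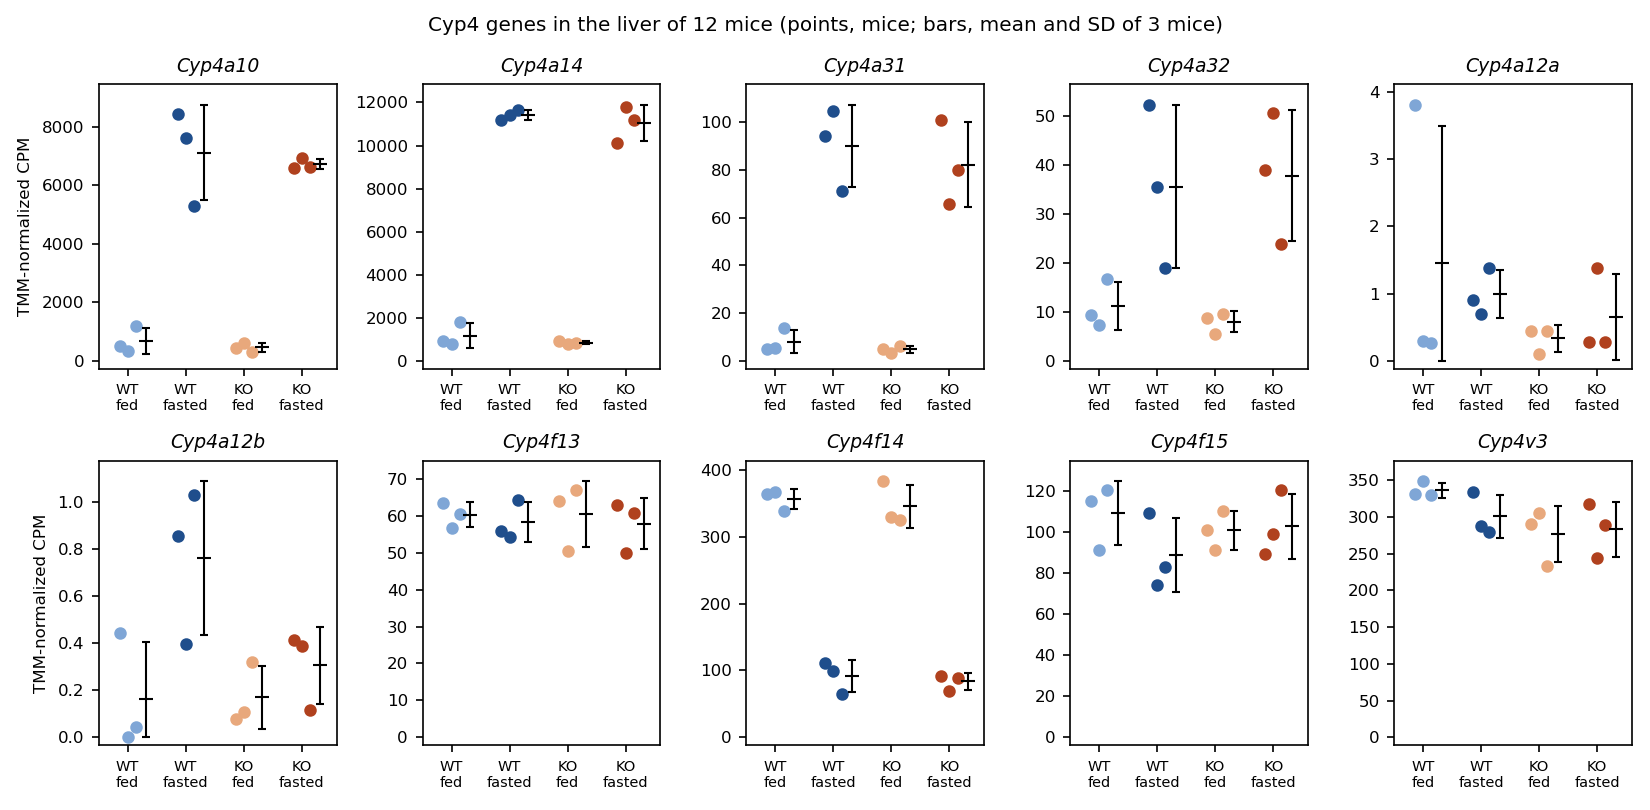
TMM-normalized CPM (vertical axis, from 0, with its own scale in each panel) of the 10 Cyp4 genes in the 12 mice, by group; WT stands for mice labelled Nts+/+ and KO for mice labelled Nts-/-. Each point is 1 mouse and the bars give the mean and SD of 3 mice, with the lower end stopped at 0. Cyp4a10, Cyp4a14, Cyp4a31 and Cyp4a32 are higher in all fasted mice than in all fed mice, Cyp4f14 is lower in all fasted mice, and the other 5 genes overlap.

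Cyp4a14 (ENSMUSG00000028715), an ω-hydroxylase of medium- and long-chain fatty acids, had the highest level per length of the 10 genes in every group. Fed mice labelled Nts+/+ had 917, 782 and 1827 TMM-normalized CPM, and fasted mice with that label had 11175, 11413 and 11673. Fed mice labelled Nts-/- had 909, 775 and 832, and fasted mice had 10130, 11790 and 11210. All 6 fasted mice lay between 10130 and 11790, far above the fed mice, among which mouse 323 stood highest. The log2 fold change was 3.28 ± 0.27 (SE; 9.71-fold, adjusted p = 1.5e-05, edgeR quasi-likelihood test with Benjamini-Hochberg adjustment) under the Nts+/+ label and 3.72 ± 0.27 (13.2-fold, adjusted p = 4.9e-06) under the Nts-/- label.

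Cyp4a10 (ENSMUSG00000066072) is the other main PPARα-responsive ω-hydroxylase of mouse liver. Its levels were 521, 329 and 1196 TMM-normalized CPM in fed mice labelled Nts+/+ and 8416, 7627 and 5285 after fasting. Under the Nts-/- label they were 439, 620 and 311 in fed mice and 6596, 6929 and 6634 after fasting. The fasted mice labelled Nts-/- lay within the range of the fasted mice labelled Nts+/+, and mouse 323 was again the highest of the fed mice. Cyp4a10 rose by 3.38 ± 0.44 on the log2 scale (SE; 10.4-fold, adjusted p = 0.000655, edgeR) under the Nts+/+ label and by 3.88 ± 0.45 (14.7-fold, adjusted p = 0.000269) under the Nts-/- label.

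Cyp4a31 (ENSMUSG00000028712) and Cyp4a32 (ENSMUSG00000063929) are close copies of Cyp4a10, read at much lower counts. Cyp4a31 stood at 5.13, 5.45 and 13.7 TMM-normalized CPM in fed mice labelled Nts+/+ and at 94.5, 105 and 71.2 after fasting, and at 4.92, 3.48 and 6.33 in fed mice labelled Nts-/- and 101.1, 65.6 and 80.1 after fasting. No fed mouse came near a fasted one. It rose by 3.48 ± 0.39 (SE, log2; adjusted p = 0.000353, edgeR) and 4.07 ± 0.40 (adjusted p = 0.000137) under the Nts+/+ and Nts-/- labels, which put it 36th and 27th of the 13812 tested genes by log2 fold change.

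Cyp4a32 had the smallest rise of the 4. Fed mice had 9.38, 7.36 and 16.8 TMM-normalized CPM under the Nts+/+ label and 8.70, 5.57 and 9.63 under the Nts-/- label. Fasted mice had 52.3, 35.6 and 19.1, and 38.9, 50.6 and 23.9. Mouse 322 was the lowest of the fasted mice and stood just above mouse 323, the highest of the fed mice. The rise of Cyp4a32 was 1.67 ± 0.44 (SE, log2; adjusted p = 0.0277, edgeR) under the Nts+/+ label and 2.24 ± 0.45 (adjusted p = 0.00865) under the Nts-/- label. The call under the Nts+/+ label was lost in 6 of 13 alternatives, with adjusted p up to 0.103: without a count filter, with only the 6 mice compared, and without mouse 254, 257, 265 or 282.

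Within a group, the 4 inducible genes did not always rank the mice alike. Of the 3 fasted mice labelled Nts+/+, mouse 322 had the highest Cyp4a14, at 11673 TMM-normalized CPM, and the lowest Cyp4a10, Cyp4a31 and Cyp4a32. Mouse 323, in contrast, was the highest of the fed mice for all 4 genes.

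Cyp4a10, Cyp4a31 and Cyp4a32 share so much sequence that the counting program had to divide reads between them. Over their coding sequences of 1527 bases each (GENCODE vM39, GRCm39), Cyp4a10 was 96.59% identical to Cyp4a31 and 97.18% identical to Cyp4a32, and 77 positions differed among the 3. The stretch of 60 bases with the most differences, coding positions 200 to 259 counted from the A of the start codon, is printed to show how little tells the copies apart, with the 9 differing positions in capitals.
Cyp4a10: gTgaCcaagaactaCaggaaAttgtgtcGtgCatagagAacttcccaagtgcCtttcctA
Cyp4a31: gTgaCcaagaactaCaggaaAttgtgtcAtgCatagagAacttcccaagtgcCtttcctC
Cyp4a32: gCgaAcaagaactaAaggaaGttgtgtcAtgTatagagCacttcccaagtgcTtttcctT
Elsewhere the 3 coding sequences were identical over as many as 148 bases in a row. Of all 50-base stretches of the transcript, 37.0% in Cyp4a10, 19.9% in Cyp4a31 and 46.8% in Cyp4a32 also occur in another member, so the counts of Cyp4a31 and Cyp4a32 depend on how the reads were divided. Cyp4a10 took between 95.1% and 98.6% of the counts of the 3 genes in every mouse. The mean share of Cyp4a31 was 1.22% ± 0.330 (SD, n = 3) in fed and 1.26% ± 0.135 in fasted mice labelled Nts+/+, and that of Cyp4a32 was 1.76% ± 0.387 and 0.475% ± 0.129. Under the Nts-/- label the share of Cyp4a32 was 1.91% ± 1.03 in fed and 0.551% ± 0.183 in fasted mice. The sum of the 3 genes does not depend on the division, and it rose by 3.37 ± 0.43 (SE, log2; adjusted p = 0.000595, edgeR) under the Nts+/+ label and by 3.86 ± 0.44 (adjusted p = 0.000246) under the Nts-/- label, and passed in all 13 alternatives of each.

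Cyp4f14 (ENSMUSG00000024292), a leukotriene B and fatty acid ω-hydroxylase, was the one member that fell on fasting. Fed mice had 363, 366 and 338 TMM-normalized CPM under the Nts+/+ label and 382, 329 and 324 under the Nts-/- label. Fasted mice had 111, 98.5 and 64.8, and 92.2, 69.4 and 89.3. The highest fasted mouse was far below the lowest fed mouse, and the fed mice varied little. Cyp4f14 fell by 1.96 on the log2 scale (SE 0.19; 3.90-fold lower, adjusted p = 4.3e-05, edgeR) under the Nts+/+ label and by 2.05 (SE 0.19; 4.13-fold lower, adjusted p = 2.5e-05) under the Nts-/- label. It passed in all 14 alternatives of each comparison.

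Its neighbours on chromosome 17, Cyp4f13 (ENSMUSG00000024055) and Cyp4f15 (ENSMUSG00000073424), did not pass in any of the 14 alternatives of either fasting comparison. Cyp4f13 lay between 49.97 and 66.9 TMM-normalized CPM over the 12 mice, with log2 fold changes of -0.050 (95% interval -0.34 to 0.24) and -0.063 (-0.35 to 0.22) under the Nts+/+ and Nts-/- labels. Cyp4f15 lay between 74.4 and 120.7, with log2 fold changes of -0.30 (-0.66 to 0.061) and 0.028 (-0.33 to 0.39). For both genes the fed and fasted mice overlapped, and the intervals leave out changes of the size seen for Cyp4f14.

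Cyp4v3 (ENSMUSG00000079057) did not pass on fasting either. Fed mice had 331, 348 and 329 TMM-normalized CPM under the Nts+/+ label and 290, 306 and 233 under the Nts-/- label, and fasted mice had 335, 288 and 280, and 318, 244 and 288. The log2 fold changes were -0.16 (95% interval -0.47 to 0.15) and 0.035 (-0.27 to 0.34), and fed and fasted mice overlapped under both labels.

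**Figure D2:**
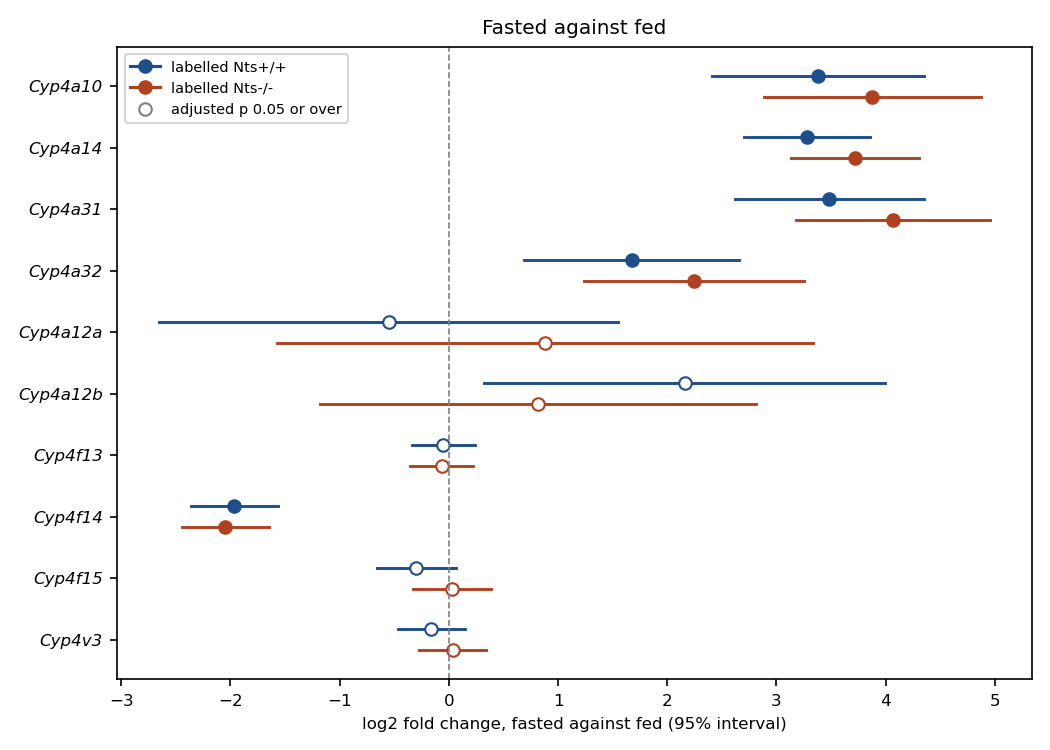
Log2 fold change of each Cyp4 gene, fasted against fed (horizontal axis), with 95% intervals from the edgeR fit, for mice labelled Nts+/+ and Nts-/- (3 against 3 mice each); filled points had an adjusted p under 0.05. Cyp4a10, Cyp4a14 and Cyp4a31 lie between 3.28 and 4.07, Cyp4a32 at 1.67 and 2.24, and Cyp4f14 at -1.96 and -2.05.

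Cyp4a12a (ENSMUSG00000066071) and Cyp4a12b (ENSMUSG00000078597), ω-hydroxylases of arachidonic acid known for higher expression in males, had low counts in these female livers. In some mice they were near the floor of 3 counts. Estimated counts of Cyp4a12a were 103, 8.00 and 5.59 in fed mice labelled Nts+/+, 19.1, 20.6 and 50.6 in fasted mice with that label, 17.5, 2.99 and 10.8 in fed mice labelled Nts-/- and 6.43, 31.7 and 11.7 in fasted ones. Mouse 254 stood apart, at 3.80 TMM-normalized CPM against 0.109 to 1.39 in the other 11 mice. Cyp4a12b was at 0 in mouse 257 and reached 1.03 TMM-normalized CPM in mouse 322, and its fed and fasted mice overlapped. The Y chromosome genes Ddx3y, Kdm5d, Eif2s3y and Uty had 0 counts in all 12 mice.

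Neither Cyp4a12 gene passed in a comparison of the 12 mice with edgeR or DESeq2. Cyp4a12b had a log2 fold change on fasting of 2.16 (95% interval 0.33 to 3.99, adjusted p = 0.0963, edgeR) under the Nts+/+ label, which passed with limma-voom (adjusted p = 0.0360) and without mouse 254 (adjusted p = 0.0162), and of 0.82 (-1.18 to 2.82) under the Nts-/- label. Cyp4a12a had -0.55 (-2.65 to 1.55) and 0.88 (-1.58 to 3.33), and changes of up to several-fold were not detectable at this depth and number of mice. Their coding sequences are 98.49% identical (23 of 1524 bases differ, with up to 342 identical bases in a row), and the stretch of 60 bases printed here, coding positions 624 to 683, holds 4 of the differences, again in capitals.
Cyp4a12a: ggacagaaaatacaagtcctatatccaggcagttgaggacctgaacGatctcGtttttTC
Cyp4a12b: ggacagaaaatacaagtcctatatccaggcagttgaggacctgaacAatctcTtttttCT
The sum of both genes had log2 fold changes on fasting of 0.11 (95% interval -1.93 to 2.15) and 0.88 (-1.44 to 3.20), and neither passed. Without mouse 254 the sum rose by 2.52 under the Nts+/+ label (adjusted p = 0.0411, edgeR).

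Other sex-biased liver genes were read beside this pair. Of 8 male-biased genes, 0 rose and 3 fell on fasting under the Nts+/+ label, and 0 rose and 1 fell under the Nts-/- label (edgeR; median log2 fold change -0.61 in both). The tools differed on this list: DESeq2 called the same 3 genes under the Nts+/+ label and 3 lower under the Nts-/- label (Hsd3b5, Mup20 and Slco1a1), while limma-voom called 2 under the Nts+/+ label, without C6, and 0 under the Nts-/- label. Hsd3b5, a ketosteroid reductase, fell by 4.62 and 3.42 on the log2 scale with edgeR. Under the Nts-/- label its counts were 33, 3 and 4 in fed and 1, 0 and 2 in fasted mice, so that fall rests mainly on mouse 277. Cyp7b1, an oxysterol hydroxylase, fell by 1.22 under the Nts+/+ label (adjusted p = 0.0177, edgeR) and had -0.56 under the other (adjusted p = 0.227). C6, a complement protein, fell by 0.80 under the Nts+/+ label (adjusted p = 0.0495), and Slco1a1 and Mup20 passed under neither label with edgeR. Of 12 female-biased genes 0 rose and 1 fell under each label, which was A1bg, with log2 fold changes of -3.22 and -4.68. Hao2, Cux2 and Acot3 did not pass. Over all tested genes, 8.91% rose and 9.19% fell under the Nts+/+ label, and 7.70% and 9.14% under the Nts-/- label (edgeR). The 1 of 12 female-biased genes, and the 1 of 8 male-biased genes under the Nts-/- label, are close to that background. In mouse 254, Hsd3b5 stood at 2.03 TMM-normalized CPM, between the other fed mice labelled Nts+/+ at 1.07 and 3.06.

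Between genes, levels were compared per kilobase of the longest annotated transcript (GENCODE vM39), as TMM-normalized CPM per kb. In fed mice labelled Nts+/+, the order was Cyp4a14 (470 ± 227, SD, n = 3), Cyp4a10 (323 ± 216), Cyp4v3 (88.1 ± 2.78), Cyp4f14 (61.7 ± 2.65), Cyp4f15 (41.0 ± 5.85), Cyp4f13 (10.1 ± 0.561), Cyp4a32 (5.45 ± 2.42), Cyp4a31 (3.19 ± 1.91), Cyp4a12a (0.576 ± 0.806) and Cyp4a12b (0.0679 ± 0.102). Single mice overlapped between Cyp4a14 and Cyp4a10, between Cyp4a32 and Cyp4a31 and between the Cyp4a12 pair, and other neighbours in this order did not overlap. Fed mice labelled Nts-/- had the same order.

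After fasting Cyp4a14 and Cyp4a10 stood alone at the top, at 4566 ± 99.5 and 3371 ± 772 TMM-normalized CPM per kb under the Nts+/+ label and 4415 ± 337 and 3186 ± 86.5 under the Nts-/- label, with no overlap between the genes. Cyp4v3 came next, at 78.9 ± 7.71 and 74.3 ± 9.76. Cyp4f14 moved from place 4 to place 7, at 15.8 ± 4.12 and 14.5 ± 2.16, where it overlapped with Cyp4a32 at 17.4 ± 8.10 and 18.4 ± 6.52. Cyp4a31 moved from place 8 to places 4 and 5, overlapping with Cyp4f15 under both labels. The place of Cyp4f13 depends on the transcript: its longest one, of 5943 bases, is non-coding, and over the protein-coding transcript of 1752 bases its level was 34.4 rather than 10.1 in fed mice labelled Nts+/+.

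As a share of all counts in the library, the 10 genes together took 0.278% ± 0.107 (SD, n = 3) in fed and 1.86% ± 0.0590 in fasted mice labelled Nts+/+, and 0.224% ± 0.0248 and 1.76% ± 0.120 in mice labelled Nts-/-. The fed mice lay between 0.196% and 0.400%, the top value being mouse 323, and the fasted mice between 1.65% and 1.91%, with no overlap.

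**Figure D3:**
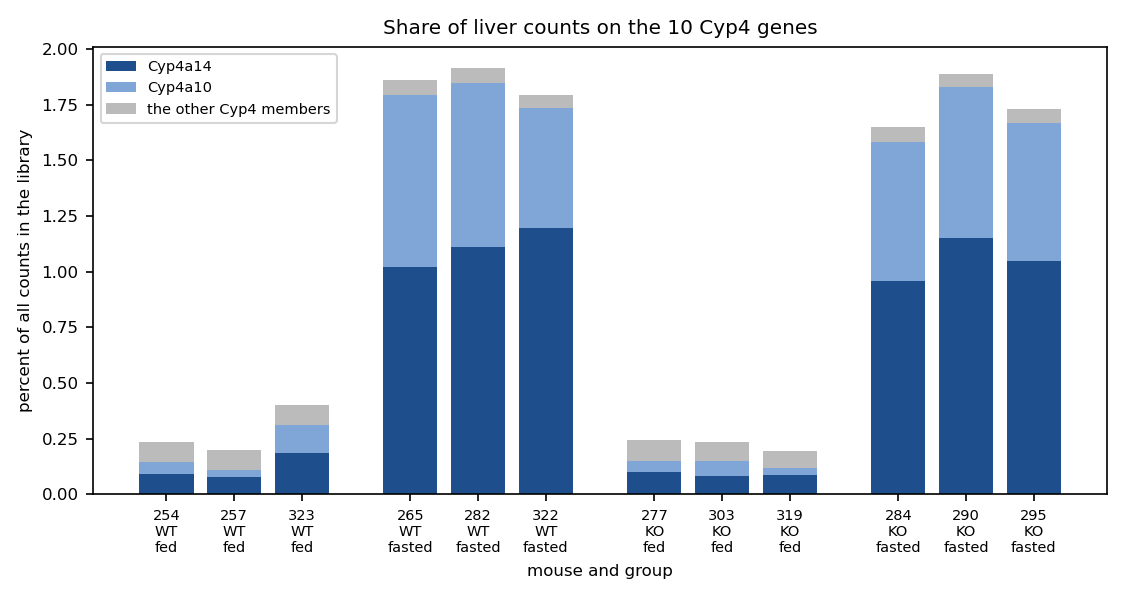
Percent of all counts in each library (vertical axis, from 0) on the 10 Cyp4 genes, for the 12 mice by group; stacked bars separate Cyp4a14, Cyp4a10 and the other members, WT stands for the Nts+/+ label and KO for the Nts-/- label. Fed mice lie between 0.196% and 0.400% and fasted mice between 1.65% and 1.91%.

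Markers of the cell types of the liver and its surroundings were read beside the fasting response. The summed hepatocyte markers, mostly Alb, overlapped between fed and fasted mice, at 114522 to 135616 and 116815 to 139244 TMM-normalized CPM under the Nts+/+ label and 107303 to 125157 and 118638 to 125807 under the Nts-/- label. Within that list Ttr, the carrier of thyroid hormone, fell by 0.63 and 0.90 on the log2 scale under the Nts+/+ and Nts-/- labels (adjusted p = 0.0226 and 0.0037, edgeR), and Apoa1, an apolipoprotein of HDL, rose by 0.73 and 1.00 (adjusted p = 0.0316 and 0.0069). The sums of several other lists were lower after fasting, as was Cyp4f14. The 5 markers of sinusoidal endothelium summed to 126 to 187 in fed and 112 to 118 in fasted mice labelled Nts+/+, and to 152 to 168 and 107 to 131 under the Nts-/- label, with no overlap under either. Clec4g, a lectin of these cells, fell under both labels, from a mean of 63.1 to 28.4 and from 58.6 to 27.8 TMM-normalized CPM (adjusted p = 0.00104 and 0.00149, edgeR), and Lyve1, a hyaluronan receptor, rose by 1.17 under the Nts+/+ label. The 5 stellate cell markers summed to 386 to 448 in fed and 340 to 369 in fasted mice labelled Nts-/-, and overlapped slightly under the Nts+/+ label (382 to 468 and 351 to 385). The 5 cholangiocyte markers, mostly Spp1, summed to 34.0 to 49.7 in fed and 13.7 to 26.2 in fasted mice labelled Nts+/+, and to 33.4 to 35.7 and 15.1 to 29.6 under the Nts-/- label. Not all of them moved alike, since Sox9 had a log2 fold change of 0.26 under the Nts+/+ label and Epcam of 0.23 under the Nts-/- label. The 5 Kupffer cell markers summed to 398 to 467 in fed and 195 to 339 in fasted mice labelled Nts+/+, with overlapping sums under the Nts-/- label (244 to 340 and 254 to 388). Of the 4 pancreas genes, Cpa1 and Pnlip were at 0 in every mouse and Prss2 had 1 count in 1 mouse, so the list rests on Cela1, an elastase, which fell by 1.82 and 1.09 on the log2 scale. The part of other cell types in the response of Cyp4f14 was not tested.

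The genotype labels made no detectable difference to any of the 10 genes. With edgeR, 0 of 10 passed in fasted mice and 0 of 10 in fed mice, against a background of 0% of the 13812 tested genes in each comparison. Of all tested genes, DESeq2 called 1 higher and 3 lower in fasted mice and 5 higher and 7 lower in fed mice. The limma-voom fit called 0 in fasted and 1 in fed mice, which was Nts, higher under the Nts-/- label. At an unadjusted p under 0.05 the members numbered 0 in both, beside 4.96% of all tested genes in fasted and 6.34% in fed mice, and with the DESeq2 Wald test and limma-voom the members called were also 0 in both. In fasted mice the log2 difference, Nts-/- against Nts+/+ label, was -0.081 for Cyp4a10 (95% interval -0.97 to 0.80), -0.048 for Cyp4a14 (-0.58 to 0.48), -0.13 for Cyp4a31 (-0.90 to 0.64) and -0.13 for Cyp4f14 (-0.51 to 0.26). A p that misses the threshold does not show that the genotypes are alike.

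In fed mice the 4 inducible genes had log2 differences below 0 under the Nts-/- label: -0.58 for Cyp4a10 (95% interval -1.47 to 0.31), -0.49 for Cyp4a14 (-1.02 to 0.043), -0.72 for Cyp4a31 (-1.55 to 0.12) and -0.48 for Cyp4a32 (-1.48 to 0.51). Mouse 323 was the fed mouse labelled Nts+/+ with the highest levels of these genes, so leaving it out had to raise the differences. Without it they were 0.10 for Cyp4a10, -0.018 for Cyp4a14, -0.11 for Cyp4a31 and -0.070 for Cyp4a32. Other mice left out moved them the opposite way. The lowest values were -0.91 for Cyp4a10, -0.71 for Cyp4a14 and -0.71 for Cyp4a32 without mouse 257, and -0.96 for Cyp4a31 without mouse 254.

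Cyp4v3 was the one member whose fed mice did not overlap between the labels. The 3 mice labelled Nts-/- (290, 306 and 233 TMM-normalized CPM) lay below the 3 labelled Nts+/+ (331, 348 and 329), with a log2 difference of -0.28 (95% interval -0.59 to 0.024, adjusted p = 0.777, edgeR). Of all tested genes, 10.7% did not overlap in this comparison and 5.85% lay lower in this way, so 1 of 10 members is close to the background. Fasted mice overlapped, with a log2 difference of -0.087 (-0.39 to 0.22).

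**Figure D4:**
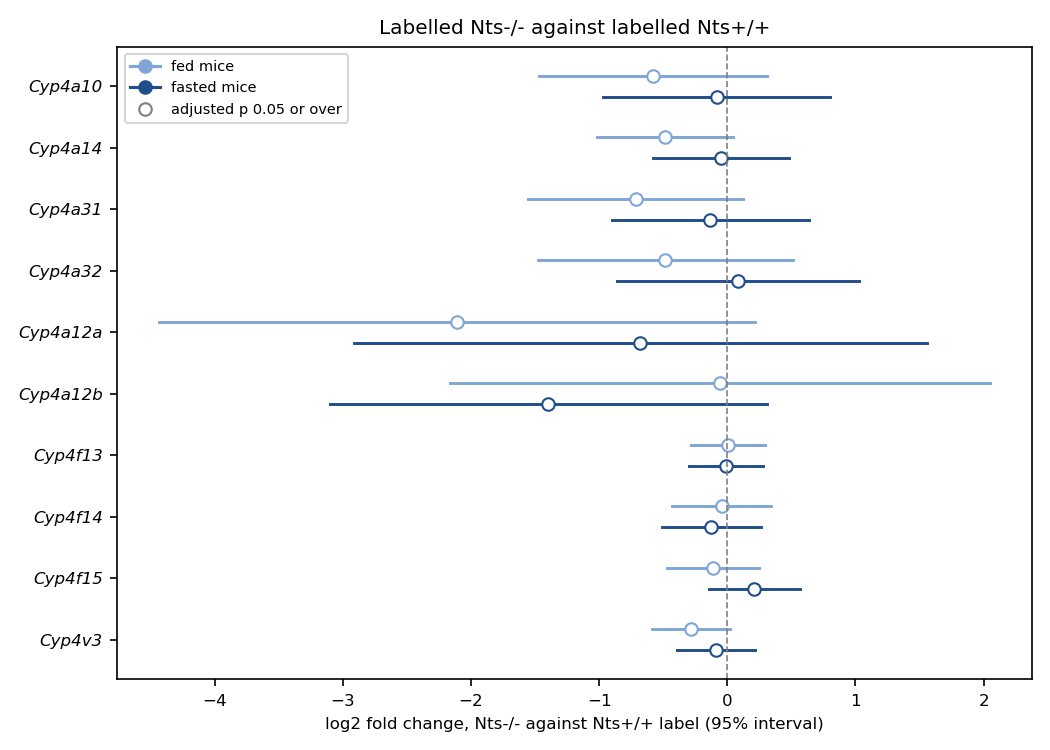
Log2 fold change of each Cyp4 gene between genotype labels, Nts-/- against Nts+/+ (horizontal axis), with 95% intervals from the edgeR fit, in fed and in fasted mice (3 against 3 mice each). All points are open, since no adjusted p was under 0.05, and all 20 intervals cross 0.

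The fasting response of the 10 genes was compared between labels by the difference of the differences, and 0 of 10 passed (edgeR; 0% of all tested genes passed, and at an unadjusted p under 0.05 the counts were 0 members and 4.80% of all tested genes; DESeq2 and limma-voom also called 0 members). The rise under the Nts-/- label exceeded that under the Nts+/+ label by 0.50 for Cyp4a10 (95% interval -0.76 to 1.75), 0.44 for Cyp4a14 (-0.31 to 1.19), 0.58 for Cyp4a31 (-0.55 to 1.72) and 0.57 for Cyp4a32 (-0.80 to 1.94) on the log2 scale. Without mouse 323 these values were -0.19, -0.031, -0.020 and 0.16, and leaving out this mouse had to lower them. The highest values without 1 mouse were 0.83 for Cyp4a10 and 0.66 for Cyp4a14 (without mouse 257). They were 0.84 for Cyp4a31 (without mouse 254) and 0.94 for Cyp4a32 (without mouse 265). For Cyp4f14 the difference was -0.082 (-0.63 to 0.46).

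The 10 genes lie in 3 places of the genome (GRCm38, positions as given by the deposited table). The 6 Cyp4a members lie on chromosome 4 between 115299046 and 115621602, in the order Cyp4a12a, Cyp4a12b, Cyp4a14, Cyp4a10, Cyp4a31 and Cyp4a32. The 4 genes that rose thus stand side by side, and the Cyp4a12 pair with low counts stands at one end. The 3 Cyp4f members lie on chromosome 17 between 32685627 and 32947402, where Cyp4f14 stands between Cyp4f15 and Cyp4f13. Cyp4v3 lies on chromosome 8 between 45304944 and 45333216.

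Promoter sequence, the 250 bases before a RefSeq start in GRCm38.p6, was found for Cyp4a32, Cyp4f13, Cyp4f14, Cyp4f15 and Cyp4v3, which is 5 of the 10 members. The members without an entry are Cyp4a10, Cyp4a14, Cyp4a31, Cyp4a12a and Cyp4a12b. Both promoters printed here belong to genes that moved with fasting in opposite directions, Cyp4a32 at chr4:115600688-115600937 (forward strand) and the first of 4 listed starts of Cyp4f14 at chr17:32917357-32917606 (reverse strand), each written 5′ to 3′ on the strand of the gene.
Cyp4a32: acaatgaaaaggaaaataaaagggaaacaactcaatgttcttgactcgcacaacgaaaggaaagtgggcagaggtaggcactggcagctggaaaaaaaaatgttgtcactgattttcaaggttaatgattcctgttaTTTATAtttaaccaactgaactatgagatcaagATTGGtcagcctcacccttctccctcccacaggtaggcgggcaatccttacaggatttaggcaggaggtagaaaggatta
Cyp4f14: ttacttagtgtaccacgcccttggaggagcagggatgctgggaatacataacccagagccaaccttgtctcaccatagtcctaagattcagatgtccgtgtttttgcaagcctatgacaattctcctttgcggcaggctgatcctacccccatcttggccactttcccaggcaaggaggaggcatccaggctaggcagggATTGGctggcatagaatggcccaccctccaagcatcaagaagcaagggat
Capitals mark matches to the CCAAT box and the TATA box. CCAAT, searched on both strands, occurs as its reverse complement ATTGG at position -80 from the start in Cyp4a32 and -50 from the printed start of Cyp4f14. From the next 2 listed starts of Cyp4f14 it lies at -64 and -77, and the last has CCAAT on the forward strand at -24. ATTGG also occurs at -76 in Cyp4f13 and -78 in Cyp4f15, and CCAAT on either strand in 33.8% of 32851 mouse promoters of the same length. TATAAA occurs on the reverse strand at -113 in Cyp4a32, against 12.4% of promoters. The DR1 motif, the kind of site that PPARα binds with RXR (0.338% of promoters), its single half-site AGGTCA (14% of promoters) and the sterol regulatory element TCACNCCAC (1.05% of promoters) had no match in the 5 genes. The searches for the DR1 motif and its half-site overlap, and the CCAAT match was shared by Cyp4f14, which fell, and by Cyp4f13 and Cyp4f15, which did not pass.

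The enzymes around the ω-hydroxylation step were read from lists of genes. Among 4 electron donors, 1 rose and 2 fell under each label. Of all tested genes, 8.91% rose and 9.19% fell under the Nts+/+ label, and 7.70% and 9.14% under the Nts-/- label. Por, the P450 reductase that passes electrons to all microsomal P450 enzymes, had 264, 275 and 312 TMM-normalized CPM in fed mice labelled Nts+/+ and 773, 762 and 827 after fasting, and 276, 270.5 and 254 and then 667, 716 and 634 under the Nts-/- label. It rose by 1.47 ± 0.12 (SE, log2; adjusted p = 1.5e-05, edgeR) and 1.33 ± 0.12 (adjusted p = 2.5e-05). Cyb5b, a cytochrome b5 of the outer mitochondrial membrane, fell by 1.51 and 1.72 on the log2 scale. Cyb5r3, the reductase of cytochrome b5, fell by 1.26 and 1.41. The other cytochrome b5 of the list, Cyb5a, did not pass, with -0.039 (adjusted p = 0.907, edgeR) and 0.44 (adjusted p = 0.122). The list's median log2 fold change was -0.65 under the Nts+/+ label and -0.48 under the Nts-/- label.

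Among 7 tested alcohol and aldehyde dehydrogenases, 1 rose and 2 fell under each label (backgrounds as for the electron donors). Aldh3a2, the fatty aldehyde dehydrogenase, had 383, 398 and 474 TMM-normalized CPM in fed mice labelled Nts+/+ and 841, 868 and 904 after fasting, and rose by 1.06 (adjusted p = 0.000459, edgeR) and 1.33 (adjusted p = 8.7e-05). The alcohol dehydrogenases Adh1 and Adh4 fell, by 1.31 and 1.13 for Adh1 and by 1.66 and 1.31 for Adh4. These steps held genes of both directions, and the list's medians were -0.047 and 0.092.

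Of 14 genes for peroxisomal handling of dicarboxylic acids, 10 rose and 0 fell under each label, with medians of 0.85 and 0.88. Of all tested genes, 8.91% rose under the Nts+/+ label and 7.70% under the Nts-/- label. Ehhadh, the bifunctional enzyme of peroxisomal β-oxidation, had 441, 467 and 521 TMM-normalized CPM in fed mice labelled Nts+/+ and 3135, 3554 and 3493 after fasting, and rose by 2.83 and 2.97 on the log2 scale. Acaa1a, a peroxisomal thiolase, rose by 1.44 and 1.69, and Acot8, a peroxisomal acyl-CoA thioesterase, by 1.07 and 1.34. Between the genotype labels, edgeR, DESeq2 and limma-voom each called 0 genes of these 3 lists in fed and in fasted mice, and at an unadjusted p under 0.05 edgeR had 1 gene, in the peroxisomal list in fed mice.

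PPARα itself and its other targets were a list of 18 genes. Of these, 13 rose and 1 fell under the Nts+/+ label (median 1.06), against 8.91% and 9.19% of all tested genes. Under the Nts-/- label 14 rose and 0 fell (median 1.41), against 7.70% and 9.14%. Ppara rose by 0.89 on fasting under the Nts+/+ label (adjusted p = 0.0119, edgeR) and had 0.60 under the Nts-/- label (adjusted p = 0.0687). Fasted mice had 114, 97.9 and 102 TMM-normalized CPM and 87.7, 81.6 and 95.6, above the fed mice of the same label. Acadm, the medium-chain acyl-CoA dehydrogenase, rose by 1.26 and 1.58, Mgll, monoacylglycerol lipase, by 1.53 and 1.47, and Slc25a20, the mitochondrial carnitine-acylcarnitine carrier, by 0.90 and 1.36. The gene that fell under the Nts+/+ label was Fabp1, the liver fatty acid binding protein, by 0.69 (adjusted p = 0.0156), and it had 0.34 under the Nts-/- label (adjusted p = 0.199). Fabp1 was chosen for naming after its values were seen. Beside these, the rises of Cyp4a10, Cyp4a14 and Cyp4a31 of 3.28 to 4.07 were larger in value than those of all 18 genes on the list in both comparisons. The closest was Fgf21, a fasting hormone of the liver, at 2.96 and 2.97. Cyp4a32, at 1.67 and 2.24, lay below Fgf21. By log2 fold change over all tested genes, Cyp4a10 was 38th and 34th and Cyp4a14 40th and 37th under the Nts+/+ and Nts-/- labels. Differences between genes were not tested. Between the genotype labels 0 of the 18 genes passed with edgeR (1 in fasted and 2 in fed mice at an unadjusted p under 0.05), and DESeq2 called 1, Fabp1, which was lower in fed mice labelled Nts-/-.

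**Figure D5:**
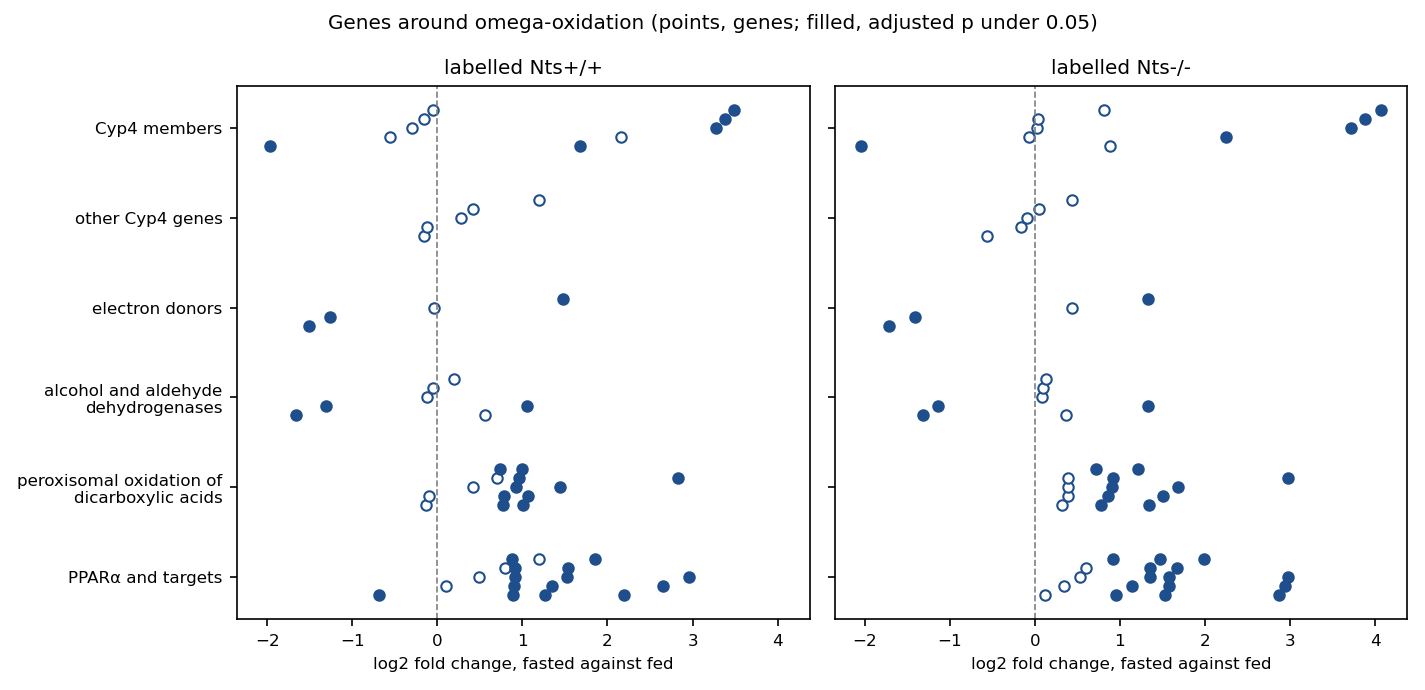
Log2 fold change, fasted against fed (horizontal axis), of the tested genes of 6 lists in mice labelled Nts+/+ (left) and Nts-/- (right); each point is 1 gene, spread vertically for legibility, and filled points had an adjusted p under 0.05. The Cyp4 members reach both the top (4.07) and the bottom (-2.05), while all 10 filled points of the peroxisomal list lie above 0 on each side.

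Outside the 10 members, 10 further Cyp4 genes were in the table, 5 of them had enough counts, and 0 passed under either label (at an unadjusted p under 0.05, 2 under each; backgrounds 32.5% and 31.7%). Cyp4f17 had log2 fold changes of 0.42 and 0.44, Cyp4f16 -0.16 and -0.56, Cyp4b1 -0.12 and -0.16, and Cyp4f39 1.20 and -0.094. DESeq2 also called 0 under each label, and limma-voom called 1 under the Nts+/+ label, Cyp4f39, and 0 under the other.

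The tested genes outside the family whose levels followed Cyp4a14 most closely over the 12 mice, by Pearson's r of log2(CPM + 0.5), were Cidec (0.994), Mfsd7c (0.993), Acad11 (0.991) and Acot8 (0.991). The mice form a fed and a fasted cluster, so r over all of them follows the difference between these. Within the 6 fed mice, r for these genes was between 0.902 and 0.966, with mouse 323 at one end, and within the 6 fasted mice between 0.0779 and 0.668. Cidec, a lipid droplet protein, had log2 fold changes on fasting of 6.53 and 7.18. For Cyp4f14 the closest genes were Nat8f1 (0.984), Pmvk (0.983), Paox (0.982) and Cutal (0.981), with r between 0.116 and 0.452 in fed and between 0.644 and 0.843 in fasted mice. Pmvk, phosphomevalonate kinase of cholesterol synthesis, had log2 fold changes of -2.67 and -2.70.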

How the data were processed

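Liver RNA of 12 mice in 4 groups of 3 was analysed. Per the labels, reads were trimmed with Trimmomatic and counted with RSEM on GRCm38; the aligner, annotation release and read length are not given in the sources used here. The authors deposited expected counts per gene, unscaled between mice, estimated so that reads shared by near-identical genes are divided among them. They were rounded to whole counts, filtered with filterByExpr (13812 of 48795 genes kept), normalized with TMM and compared with the robust quasi-likelihood test of edgeR 4.0.16 in R 4.3.3, as 1 model with a mean per group. All mice have the same batch label. The p values were adjusted by the Benjamini-Hochberg method across the genes tested, with a threshold of 0.05, and 95% intervals come from the fitted log2 fold change and its SE. The biological coefficient of variation was 0.202. Floors and intervals of counts cover counting error only. The members and gene lists were chosen with earlier results of these data known, and counts by list are descriptions. Named genes are all members, the 3 genes of each list with the smallest p in each fasting comparison, Ppara and Por, and the 5 genes most like Cyp4a14 and Cyp4f14. Of the genes this rule names, 2 are not reported here. Fgf21, Fabp1, Cyb5a, single cell type markers and neighbouring genes were named after their values were seen.

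Transcript lengths and coding sequences came from GENCODE vM39 by Ensembl identifier; coding sequences are those of the canonical transcript, except for Cyp4a32, whose canonical coding sequence is short and where the transcript nearest in coding length to Cyp4a10 was used. Promoters are RefSeq entries for GRCm38.p6. Alternatives were RLE and upper-quartile normalization, DESeq2 1.42.0, limma-voom (limma 3.58.1), a fit with no filter on counts, a minimum of 10 counts per mouse, a fit of the compared mice alone, near-identical genes summed, other transcript lengths, and each mouse left out. The length of the longest protein-coding transcript was added after the data were seen. The steps were tested on simulated data.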

Additional observations from a re-analysis of the deposited data

How the results depend on the processing

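The calls of Cyp4a10, Cyp4a14, Cyp4a31 and Cyp4f14 on fasting kept their direction and their side of the threshold under both labels in every alternative that gave a value, 13 or 14 for each gene, and so did Cyp4a32 under the Nts-/- label. Cyp4a32 under the Nts+/+ label had log2 fold changes of 1.30 to 2.09 without 1 mouse. The counts of 5 members called became 3 under each label once near-identical genes were summed, because 3 of the genes that rose then form 1 unit. Cyp4a12a and Cyp4a12b gave no value with at least 10 counts in every mouse, since both fall below it, and Cyp4a12b gave none on fasting under the Nts-/- label with only the mice compared. Between the labels, 0 members were called in all alternatives. No paired analysis was made, because the labels used here give no litter or other link between mice of different groups. Depth limits the Cyp4a12 pair, with estimated counts between 0 and 103 per mouse.

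The following log2 values changed sign. None was past the threshold with all mice, the cause of each was not tested, and those without 1 mouse rest on 2 mice in a group. With upper-quartile normalization, Cyp4f15 had -0.0061 on fasting under the Nts-/- label and Cyp4f13 had 0.00060 between labels in fasted mice. With at least 10 counts in every mouse, Cyp4f13 had 0.0054 between labels in fasted mice and 0.0013 for the difference of the differences. With DESeq2, Cyp4a12b had 0.0065 between labels in fed mice. With limma-voom, Cyp4a12b had 0.86 and Cyp4f13 -0.0055 between labels in fed mice, Cyp4a12a had 0.45 on fasting under the Nts+/+ label, and the sum of the Cyp4a12 pair had -0.46 for the difference of the differences. In the ranges below, the Cyp4a10 sum is that of Cyp4a10, Cyp4a31 and Cyp4a32 and the Cyp4a12 sum that of Cyp4a12a and Cyp4a12b. For fasting under the Nts+/+ label, leaving out 1 mouse gave -1.04 to 1.81 for Cyp4a12a and -0.39 to 2.52 for the Cyp4a12 sum. For fasting under the Nts-/- label, leaving out 1 mouse gave -0.26 to 1.30 for Cyp4a12a, -0.17 to 0.034 for Cyp4f13, -0.098 to 0.12 for Cyp4f15 and -0.072 to 0.14 for Cyp4v3. For the labels in fed mice, leaving out 1 mouse gave -0.91 to 0.10 for Cyp4a10, -2.59 to 0.26 for Cyp4a12a, -0.82 to 2.75 for Cyp4a12b, -0.074 to 0.12 for Cyp4f13, -0.91 to 0.094 for the Cyp4a10 sum and -2.19 to 0.72 for the Cyp4a12 sum. For the labels in fasted mice, leaving out 1 mouse gave -0.26 to 0.051 for Cyp4a10, -0.098 to 0.0019 for Cyp4a14, -0.31 to 0.0072 for Cyp4a31, -0.22 to 0.46 for Cyp4a32, -0.079 to 0.085 for Cyp4f13, -0.32 to 0.029 for Cyp4f14, -0.18 to 0.010 for Cyp4v3 and -0.25 to 0.051 for the Cyp4a10 sum. For the difference of the differences, leaving out 1 mouse gave -0.19 to 0.83 for Cyp4a10, -0.92 to 1.92 for Cyp4a12a, -0.031 to 0.66 for Cyp4a14, -0.020 to 0.84 for Cyp4a31, -0.12 to 0.081 for Cyp4f13, -0.28 to 0.072 for Cyp4f14, -0.17 to 0.83 for the Cyp4a10 sum and -1.64 to 1.27 for the Cyp4a12 sum. Lengths of merged exons in place of the longest transcript moved the level of Cyp4f13 to between 5.75 and 6.01 TMM-normalized CPM per kb over the groups, of Cyp4a14 in fasted mice labelled Nts+/+ to 4287 and of Cyp4f14 in fed mice with that label to 57.3, and the longest protein-coding transcript put Cyp4f13 between 33.0 and 34.5.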

Other observations

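The tested genes around the Cyp4 clusters were counted within 1 Mb on either side, leaving out the members; this look at neighbours was chosen after the data were seen, and no test of the clusters was made. Around the Cyp4a cluster on chromosome 4, 0 of 23 neighbours rose on fasting and 2 fell under each label (8.70% of the neighbours), namely Pdzk1ip1, with log2 fold changes of -3.07 and -2.74, and Nsun4, with -0.52 and -0.55. Over all tested genes, 8.91% rose and 9.19% fell under the Nts+/+ label, and 7.70% and 9.14% under the Nts-/- label. With so few neighbours in each place, the counts here and below are not read as traits of the clusters. Around the Cyp4f cluster on chromosome 17, 2 of 47 neighbours rose and 3 fell under the Nts+/+ label, and 3 rose and 3 fell under the Nts-/- label. Those that passed under both labels were Pglyrp2, a secreted peptidoglycan-cleaving enzyme of the liver (0.94 and 0.68), Wdr46 (0.44 and 0.43), Tapbp, a helper of peptide loading on MHC class I (-0.77 and -0.88), Zfp101 (-1.39 and -0.83) and Zfp81 (-0.69 and -0.70). Around Cyp4v3 on chromosome 8, 0 of 15 neighbours rose and 3 fell under the Nts+/+ label, and 1 rose and 3 fell under the Nts-/- label, among them Fam149a (-0.71 and -1.02) and Lrp2bp (-1.86 and -2.33).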
